A study of Homo sapiens with 9 samples.

Results

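The genes described here are 50 human genes that license, start and copy DNA replication origins, taken by symbol from the 18522 genes of a poly(A) RNA sequencing table. They were measured in THP-1, an acute monocytic leukemia (AML) cell line. Cells received by lentivirus either a control shRNA (shCTRL) or 1 of 2 short hairpin RNAs against RASSF2, a Ras association domain protein that binds the Hippo pathway kinases (shRASSF2-1 and shRASSF2-2), with 3 libraries in each of 3 groups. All 3 groups went through puromycin selection at 1 ug/mL for 96 h, and RNA came from 2.0 M viable cells per condition. The labels name neither separate cultures nor clones, so a p-value here reflects the spread among the libraries alone, and that spread may be technical.

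Before S phase, the origin recognition complex marks DNA, and CDC6 and CDT1 load the MCM2-7 helicase onto it as an inactive ring. Cyclin E with its kinase and CDC7 with DBF4 then recruit CDC45 and the GINS complex, which turn the ring into a moving helicase. Polymerase alpha with primase starts each strand, polymerases epsilon and delta extend them on the PCNA clamp, and TIMELESS, TIPIN and CLSPN hold the fork together when it stalls. Most of these genes are transcribed at the G1/S boundary under E2F factors, so in dividing cells, leukemia lines included, their RNA is abundant and in resting or differentiated cells it is scarce. In bulk RNA, fewer cells in S phase and less RNA per cell cannot be told apart.

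RASSF2 itself, the targeted gene, was read first. Its normalized read count, the unit of the deposited table (reads divided by a size factor per library), was 1104, 1078 and 1010 in the controls, 134, 198 and 159 in the shRASSF2-1 libraries and 331, 342 and 262 in the shRASSF2-2 libraries. The groups did not overlap, and RASSF2 was lower in both knockdowns (log2 fold change -2.71 and -1.78, limma adjusted p = 3.92e-07 and 3.08e-06). RASSF2 was higher with shRASSF2-2 than with shRASSF2-1 (log2 difference 0.93, limma adjusted p = 0.00043). Libraries held 13.3 to 20.1 M reads. Control replicates 1 and 2 were sequenced on a flow cell of their own, while control replicate 3 shared one with all 6 knockdown libraries. Control replicate 1 stood apart for the replication genes: it was below the mean of the other controls for 37 of the 50 and above it for 13, by -1.30 (PRIM2) to 0.74 (CDT1) on the log2 scale. Across the 50 genes that deviation had r = 0.64 with transcript GC content, which ran from 36.9% to 65.0%. This is a description of 1 library, and its part in the results was not tested. Calls and directions that change without it are given both ways for the genes named.

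All 50 genes passed the filter on low values, with normalized read counts from 31.9 to 7265. With shRASSF2-1, 46 of the 50 were lower than in the controls and 4 were not called (ORC2, CDC7, PRIM2 and RPA2), at a limma adjusted p under 0.05. With shRASSF2-2, 49 were lower and PRIM2 alone was not called. Over all 15465 genes tested, 29.2% were called lower with shRASSF2-1 and 29.1% with shRASSF2-2. The median log2 fold change of the 50 was -1.43 with shRASSF2-1 (range -3.09 to 0.17) and -2.02 with shRASSF2-2 (range -3.53 to -0.29), against 0.02 and 0.04 over all genes. At least 2-fold reductions were seen for 36 genes with shRASSF2-1 and 45 with shRASSF2-2, and at least 4-fold reductions for 9 and 28. The shares of all genes reduced that much were not counted. Both comparisons use the same 3 control libraries.

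The 3 libraries of each group had similar medians over the 50 genes. Single genes could still differ in control replicate 1, such as MCM3 at 3798 against 7265 and 7247 in the other controls. The median of the 50 genes, as a log2 difference from the control mean, was -0.16, 0.11 and 0.07 in the controls, -1.45, -1.49 and -1.40 for shRASSF2-1 and -2.07, -1.94 and -2.09 for shRASSF2-2. Every knockdown library lay below every control library on this measure, and the shRASSF2-2 libraries lay below those of shRASSF2-1. Gene by gene, all 3 shRASSF2-1 libraries were below all 3 controls for 46 genes, and all 3 shRASSF2-2 libraries for 49. Such separation was not counted over all genes, so how unusual these counts are is not known. The authors' deposited table, which holds 1 comparison of knockdown with control, gives a log2 fold change below 0 for all 50 genes. Their median there is -1.67, with a range of -3.20 to -0.20. Of the 50, 46 have an adjusted p under 0.05 in that table, against 15.3% of all 18522 genes lower at that threshold.

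**Figure D1:**
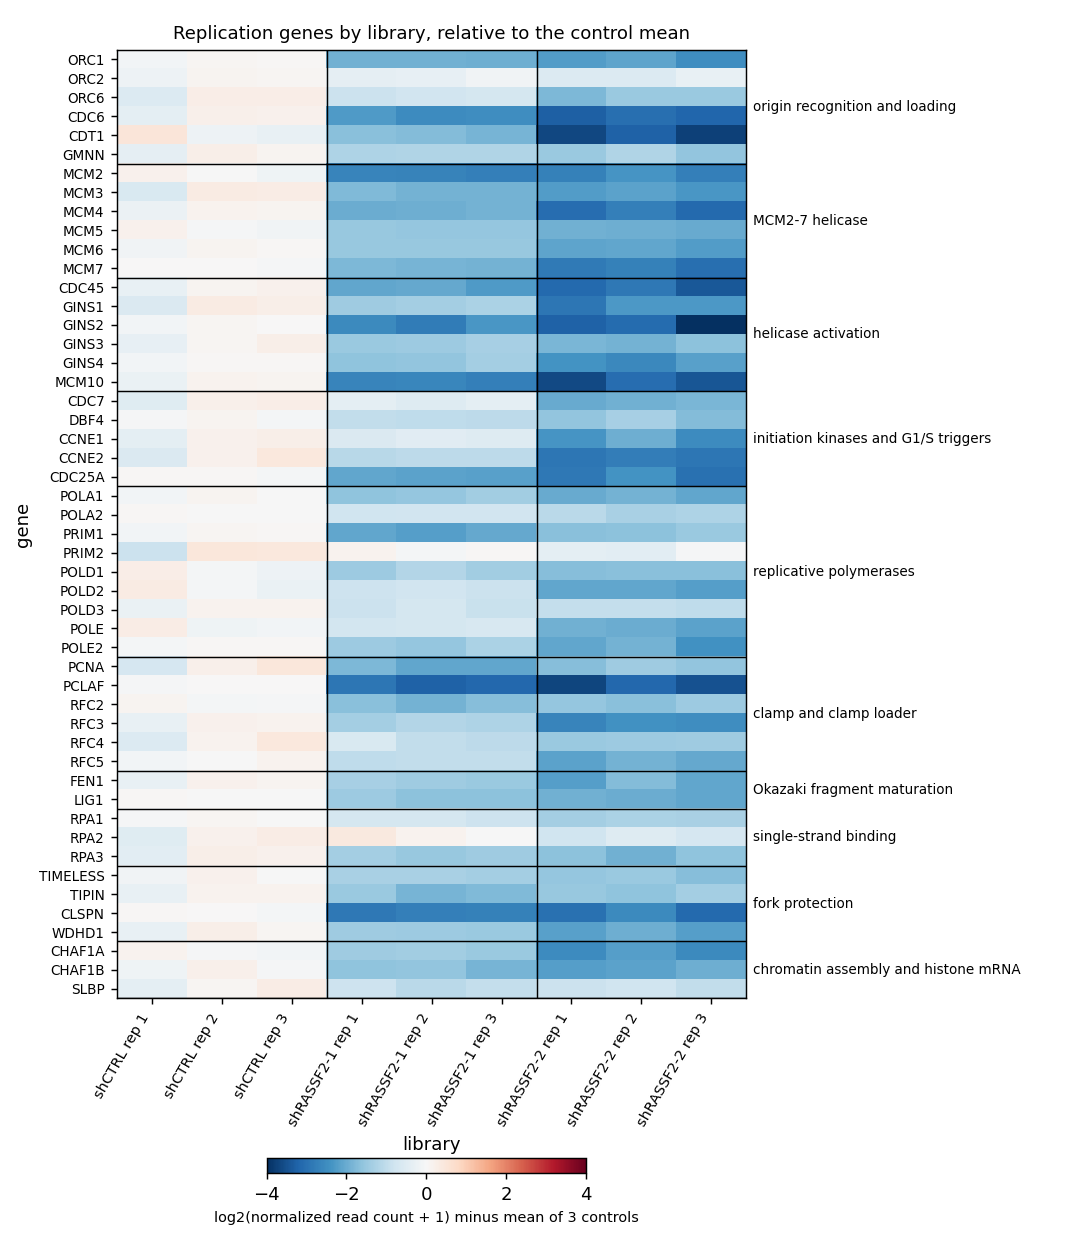
Each row is 1 replication gene and each column 1 library; colour gives log2(normalized read count + 1) minus the mean of the 3 controls, with genes grouped by role. The knockdown columns are blue in nearly every row, darker with shRASSF2-2, while ORC2, PRIM2 and RPA2 stay pale with shRASSF2-1.

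In the controls the genes differed widely in abundance. As TPM, a share of transcripts that corrects for exon length and so lets genes be compared within the controls, means ran from 18.9 TPM (CHAF1B) to 304 TPM (MCM3), with a median of 55.3 TPM. The 6 MCM2-7 subunits, which form 1 ring with a copy of each, stood at 304 ± 89.2 (MCM3), 243 ± 24.3 (MCM4), 237 ± 13.6 (MCM7), 181 (MCM2), 161 (MCM6) and 149 TPM (MCM5) (SD, n = 3). Neighbours in this order lay within their spread, except that MCM7 and MCM2 were separated. GINS2 and GINS3, subunits of a complex that also has a copy of each, stood at 32.4 ± 0.461 and 23.2 ± 4.0 TPM (SD, n = 3). The catalytic subunit of polymerase alpha, POLA1, was among the scarcest at 21.8 TPM, while its primase partner PRIM1 was at 86.7 TPM.

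**Figure D2:**
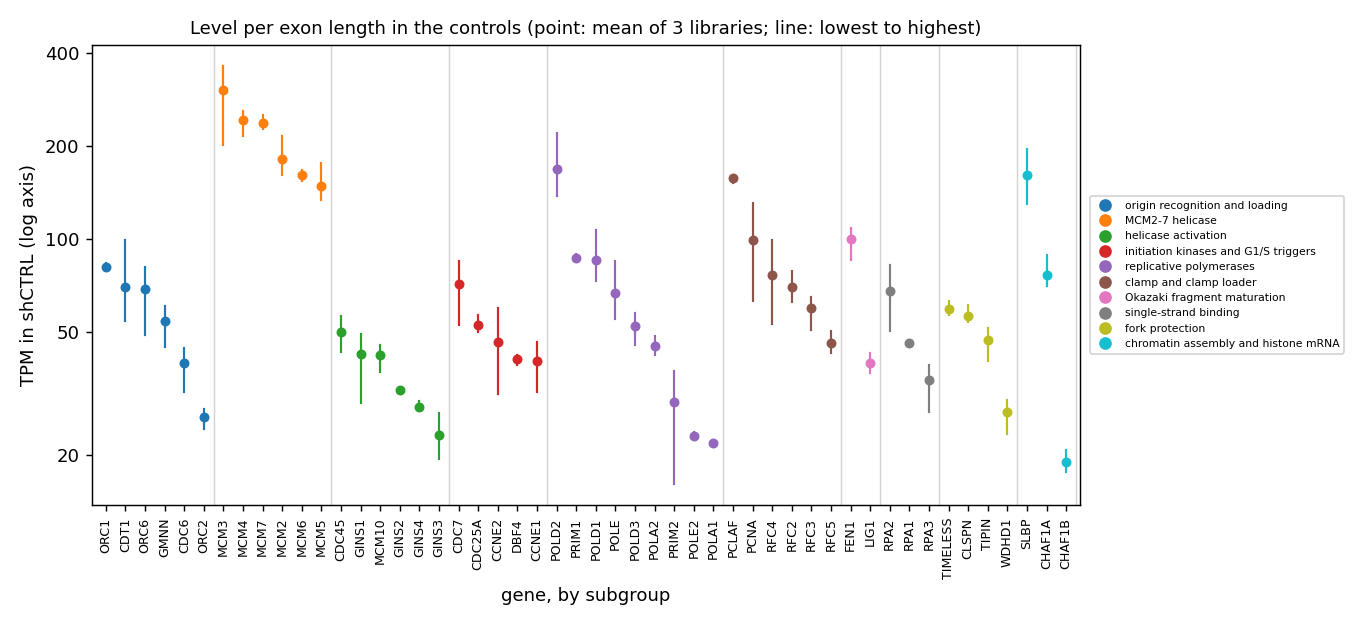
Mean control level of each replication gene in TPM on a log axis (point, 3 libraries), with a line from the lowest to the highest library, grouped by role and ordered within it. The 6 MCM2-7 subunits lie at 149 to 304 TPM, above every helicase activation and initiation kinase gene.

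For 43 of the 50 genes RefSeq's promoter table (build GRCh38.p14) held an entry, and its first entry per gene was used, from 250 bases before the start to 50 after it. The window was searched on both strands for 4 E2F octamers, TTTCCCGC, TTTCGCGC, TTTGGCGC and TTTGCCGC, counting overlapping matches. At least 1 was found in 18 of the 43 (41.9%), against 3.33% of all 27305 genes with an entry and 5.07% of the 11926 that were also tested for expression. CCAAT, the letters of the CCAAT box, was found in 23 of the 43 (53.5%), against 36.1% of tested genes. TTTGAA, letters of the cell cycle homology region common at late cell cycle genes, was found in DBF4 only, 2.33% of the 43 against 10.2% of tested genes. The median log2 fold change was -1.67 with shRASSF2-1 and -2.36 with shRASSF2-2 for the 18 genes with an octamer, and -1.32 and -1.69 for the 25 without; the ranges of both overlapped widely. A match is a run of letters and not a shown binding site, and the absence of a match says only that these letters are not in this window.

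The 160 bases before the start are printed below, 5′ to 3′ on the gene's strand, for 6 genes with an octamer and for CDC7 and ORC2, which have none in the window and were not called lower with shRASSF2-1. They show how near the start the matches lie, and capitals mark the octamers. CDC7 and ORC2 do not stand for all 25 genes without an octamer. With shRASSF2-1 the log2 fold changes of those 25 ran from -3.09 (PCLAF) to 0.04 (PRIM2). MCM10 (-2.66) and CDC45 (-2.13) were also among them. With shRASSF2-2, CDC7 and ORC2 were called lower (-1.92 and -0.46).
MCM6, chr2:135876444-135876603, strand -: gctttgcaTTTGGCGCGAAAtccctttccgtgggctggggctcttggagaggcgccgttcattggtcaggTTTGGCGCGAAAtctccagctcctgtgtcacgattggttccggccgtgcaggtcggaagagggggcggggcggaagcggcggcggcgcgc
MCM7, chr7:100101398-100101557, strand -: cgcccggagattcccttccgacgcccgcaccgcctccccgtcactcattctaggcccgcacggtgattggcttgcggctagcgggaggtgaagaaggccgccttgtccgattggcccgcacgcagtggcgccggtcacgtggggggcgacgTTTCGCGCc
PCNA, chr20:5126623-5126782, strand -: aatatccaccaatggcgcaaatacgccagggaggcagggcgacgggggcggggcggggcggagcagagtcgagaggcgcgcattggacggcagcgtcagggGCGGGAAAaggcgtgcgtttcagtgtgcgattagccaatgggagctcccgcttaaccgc
CDC25A, chr3:48188418-48188577, strand -: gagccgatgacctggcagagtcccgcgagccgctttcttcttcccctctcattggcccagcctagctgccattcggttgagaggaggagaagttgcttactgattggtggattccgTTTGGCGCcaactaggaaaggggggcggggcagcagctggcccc
CDT1, chr16:88803629-88803788, strand +: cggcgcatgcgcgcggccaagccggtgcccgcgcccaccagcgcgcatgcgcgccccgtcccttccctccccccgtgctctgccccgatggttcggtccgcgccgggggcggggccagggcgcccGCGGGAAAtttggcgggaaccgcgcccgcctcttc
POLE, chr12:132687343-132687502, strand -: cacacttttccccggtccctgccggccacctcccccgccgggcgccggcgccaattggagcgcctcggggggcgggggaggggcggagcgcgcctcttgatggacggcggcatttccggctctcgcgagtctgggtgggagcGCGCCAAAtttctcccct
CDC7, chr1:91500691-91500850, strand +: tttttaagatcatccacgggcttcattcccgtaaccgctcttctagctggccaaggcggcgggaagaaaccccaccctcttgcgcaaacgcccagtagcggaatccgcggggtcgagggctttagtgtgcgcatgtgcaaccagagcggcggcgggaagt
ORC2, chr2:200963661-200963820, strand -: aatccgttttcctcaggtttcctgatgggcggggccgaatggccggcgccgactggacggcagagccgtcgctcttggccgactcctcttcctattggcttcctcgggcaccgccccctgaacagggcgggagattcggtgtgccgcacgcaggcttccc
MCM6 carried 4 matches as 2 overlapping pairs, with first bases at -152, -148, -90 and -86 from the start. In these 160 bases the others each had a single match, at -9 for MCM7, -59 for PCNA, -44 for CDC25A, -35 for CDT1 and -18 for POLE; MCM7 had another further out in the searched window.

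Among the 6 origin recognition and loading genes, 5 were lower with shRASSF2-1 and 6 with shRASSF2-2, with median log2 fold changes of -1.48 and -1.93. CDC6, the loader that recruits the helicase, had 900, 1361 and 1314 normalized reads in the controls, 241, 204 and 209 under shRASSF2-1, and 120, 144 and 130 under shRASSF2-2. The 3 groups did not overlap. CDC6 fell to 18.3% and 11% of the control mean (log2 fold change -2.43 and -3.15, SE 0.16, limma adjusted p = 1.13e-06 and 8.15e-08). CDT1, the partner of CDC6 in loading, stood at 1894, 1181 and 1089 in the controls, 417, 404 and 373 in the shRASSF2-1 libraries and 107, 142 and 101 in the shRASSF2-2 libraries. Its shRASSF2-2 libraries were all below its shRASSF2-1 libraries, and its log2 fold change of -3.53 with shRASSF2-2 was the most negative of the 50, against -1.76 with shRASSF2-1 (limma adjusted p = 1.57e-07 and 4.16e-05). GMNN, which encodes geminin, the inhibitor of CDT1, fell less (log2 fold change -1.21 and -1.43, limma adjusted p = 0.000126 and 2.71e-05). 

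The origin recognition complex itself split by subunit. ORC1, the subunit whose level rises and falls through the cell cycle, was 1465, 1671 and 1631 in the controls, 419, 421 and 406 for shRASSF2-1 and 337, 365 and 282 for shRASSF2-2, with no overlap between groups (log2 fold change -1.93 and -2.28, limma adjusted p = 3.76e-07 and 4.89e-08). ORC2, a core subunit that stays bound to chromatin, was 614, 767 and 753 in the controls, 557, 563 and 642 under shRASSF2-1, and 486, 486 and 573 under shRASSF2-2. Its shRASSF2-1 libraries overlapped the controls and its shRASSF2-2 libraries did not. ORC2 was not called with shRASSF2-1 (log2 fold change -0.27, limma adjusted p = 0.0724) and was lower with shRASSF2-2 (-0.46, limma adjusted p = 0.00602). Without control replicate 1, ORC2 was called with shRASSF2-1 too (-0.37, limma adjusted p = 0.00297). ORC6, which completes the complex, was lower with both shRNAs (-0.77 and -1.59, limma adjusted p = 0.00787 and 5.6e-05). 

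All 6 MCM2-7 helicase genes were lower with each shRNA, with medians of -1.84 and -2.41. MCM2 had 4585, 3984 and 3602 normalized reads in the controls, 653, 634 and 605 in the shRASSF2-1 libraries and 622, 788 and 608 in the shRASSF2-2 libraries. The knockdown groups overlapped each other and lay far below the controls, at 15.5% and 16.6% of the control mean (log2 fold change -2.68 and -2.59, SE 0.12, limma adjusted p = 1.44e-07 and 4.18e-08). About 30.7% of the exon length of MCM2 overlaps AC023593.1 on the opposite strand, and since the sources used here do not say whether counting used strand, its value is uncertain to that extent. MCM5, the least reduced of the 6 on the mean of both comparisons, was 3644, 3141 and 2932 in the controls, 1115, 1095 and 1104 for shRASSF2-1 and 857, 841 and 798 for shRASSF2-2. Its 3 groups did not overlap, and it fell to 34.1% and 25.7% of the control mean (log2 fold change -1.55 and -1.95, limma adjusted p = 4.63e-07 and 4.07e-08).

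Within the ring, the subunits thus differed in how the shRNAs compared. MCM4 and MCM7, which sit with MCM6 in the core that has helicase activity, were lower with shRASSF2-2 than with shRASSF2-1 (log2 difference -1.02 and -0.99, limma adjusted p = 4.9e-05 and 5.16e-06). MCM7 had 5408, 5423 and 5223 normalized reads in the controls, 1533, 1467 and 1452 under shRASSF2-1, and 755, 827 and 664 under shRASSF2-2, with no overlap. MCM6 and MCM5 were also lower with shRASSF2-2 (log2 difference -0.62 and -0.41, limma adjusted p = 0.00012 and 0.00277). MCM3 was not called between the shRNAs (-0.39, 95% interval -0.85 to 0.07, limma adjusted p = 0.134), and it was called without control replicate 1, where the pooled spread is smaller (limma adjusted p = 4.66e-05). For MCM2 the difference was 0.08 (95% interval -0.18 to 0.35, limma adjusted p = 0.577).

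The 6 helicase activation genes were lower with each shRNA, with medians of -1.82 and -2.80, the second being the most negative median of the 10 role groups. GINS2, a subunit of the GINS complex, had 501, 569 and 543 normalized reads in the controls, 90.5, 76 and 106 in the shRASSF2-1 libraries and 55.6, 62.4 and 31.9 in the shRASSF2-2 libraries. No groups overlapped, and GINS2 fell to 16.9% and 9.29% of the control mean (log2 fold change -2.56 and -3.46, SE 0.24, limma adjusted p = 9.21e-06 and 5.58e-07). GINS3, another subunit of the same complex, was the least reduced of the 6 by the same measure, at 272, 359 and 405 in the controls, 120, 123 and 135 for shRASSF2-1 and 95.2, 91.9 and 109 for shRASSF2-2. Both knockdown groups lay below its controls and did not overlap each other (log2 fold change -1.43 and -1.78, limma adjusted p = 4.06e-05 and 5.02e-06). MCM10, which helps the assembled helicase to start, fell with log2 fold changes of -2.66 and -3.36, and CDC45, the helicase cofactor, with -2.13 and -3.12 (limma adjusted p between 5.26e-08 and 3.91e-06). For GINS1 and GINS4, the remaining subunits, the log2 fold changes were -1.35 and -1.52 with shRASSF2-1 and -2.49 and -2.37 with shRASSF2-2.

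Of the 5 initiation kinase and G1/S trigger genes, 4 were lower with shRASSF2-1 and 5 with shRASSF2-2, and here the medians lay furthest apart, at -1.02 and -2.27. CDC25A, the phosphatase that activates the cyclin E kinase, had 1263, 1275 and 1172 normalized reads in the controls, 293, 280 and 275 under shRASSF2-1, and 168, 236 and 156 under shRASSF2-2. It fell with each shRNA and its groups did not overlap (log2 fold change -2.12 and -2.74, limma adjusted p = 1.22e-06 and 9.34e-08). CDC7, the kinase that phosphorylates the loaded helicase, was 1038, 1687 and 1772 in the controls, 1115, 1028 and 1110 in the shRASSF2-1 libraries and 361, 382 and 409 in the shRASSF2-2 libraries. Its shRASSF2-1 libraries overlapped control replicate 1 and lay below the other controls, and its shRASSF2-2 libraries lay below all others. CDC7 was not called with shRASSF2-1 (log2 fold change -0.43, limma adjusted p = 0.0573) and fell with shRASSF2-2 (-1.92, limma adjusted p = 4.31e-06). It was called lower with shRASSF2-1 without control replicate 1 (-0.67, limma adjusted p = 2.28e-06) and with edgeR or DESeq2 (adjusted p = 0.0352 and 0.0248). DBF4, the activating subunit of CDC7, fell with both (-1.02 and -1.55, limma adjusted p = 3.46e-05 and 9.35e-07).

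Both cyclin E genes, whose proteins activate the kinase CDK2 at the entry to S phase, were lowest with shRASSF2-2. CCNE1 had 389, 579 and 598 normalized reads in the controls, 344, 377 and 360 for shRASSF2-1 and 99.8, 133 and 89.0 for shRASSF2-2. The shRASSF2-1 values were below those of the controls only narrowly, and the shRASSF2-2 values were below both. CCNE1 fell to 69.0% of the control mean with shRASSF2-1 (log2 fold change -0.51, limma adjusted p = 0.0413) and to 20.5% with shRASSF2-2 (-2.27, limma adjusted p = 2.4e-06). The first of these calls was lost without control replicate 2 or 3, without any 1 of the shRASSF2-1 libraries and without shRASSF2-2 replicate 1 (limma adjusted p = 0.0553 to 0.133). CCNE2 had 634, 1083 and 1266 in the controls, 443, 461 and 461 under shRASSF2-1, and 128, 141 and 127 under shRASSF2-2. Its groups did not overlap (log2 fold change -1.07 and -2.85, limma adjusted p = 0.00147 and 9e-07), and 47.5% of its exon length overlaps INTS8 on the opposite strand, which leaves its level uncertain.

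Of the 9 replicative polymerase genes, 8 were lower with each shRNA, and their medians of -0.82 and -1.69 were nearer to 0 than those of the helicase, clamp loader and fork protection groups. The primase subunits, which lay down the RNA primer, went apart. PRIM1, the catalytic subunit, had 694, 785 and 768 normalized reads in the controls, 176, 161 and 181 in the shRASSF2-1 libraries and 235, 242 and 268 in the shRASSF2-2 libraries. Its groups did not overlap, with shRASSF2-1 lowest (log2 fold change -2.11 and -1.59, SE 0.11, limma adjusted p = 2.05e-07 and 4.85e-07). PRIM2, the regulatory subunit, had 259, 645 and 635 in the controls, 520, 452 and 493 for shRASSF2-1 and 361, 355 and 454 for shRASSF2-2. Control replicate 1 was below every other PRIM2 value and both other controls were above them all. PRIM2 was not called with either shRNA (log2 fold change 0.04 and -0.29, SE 0.29, limma adjusted p = 0.914 and 0.418). Without control replicate 2 its value with shRASSF2-1 was 0.27 and not called. Without control replicate 1 it was lower with both (-0.39 and -0.72, limma adjusted p = 0.00568 and 3.25e-05), so its value with shRASSF2-1 depends on that library. Part of PRIM2 has a near-identical copy in the genome, and 26.0% of the exon length of PRIM1 overlaps AC117378.1 on the same strand, so both levels are uncertain.

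The other polymerase subunits divided by shRNA. POLE, the catalytic subunit of the leading strand polymerase, was 3917, 2818 and 2939 in the controls, 1935, 1955 and 2067 under shRASSF2-1, and 839, 805 and 716 under shRASSF2-2. The groups did not overlap, and POLE stood at 61.6% and 24.4% of the control mean (log2 fold change -0.68 and -2.02, limma adjusted p = 0.000852 and 2.35e-07). POLD2, an accessory subunit of polymerase delta, was close to it, with log2 fold changes of -0.82 and -2.13, while POLD3, another accessory subunit, had -0.82 and -0.98 (limma adjusted p = 0.000196 and 3.75e-05). POLD1, the catalytic subunit of the same polymerase, was 2207, 1759 and 1598 in the controls, 673, 809 and 701 in the shRASSF2-1 libraries and 559, 578 and 570 in the shRASSF2-2 libraries. Both knockdown groups were below the controls without overlap (log2 fold change -1.34 and -1.69, limma adjusted p = 8.3e-06 and 8.13e-07). The log2 fold changes were -1.51 and -2.0 for POLA1, -1.42 and -2.12 for POLE2, an accessory subunit of polymerase epsilon, and -0.78 and -1.2 for POLA2, of whose exon length 53.7% overlaps AP000944.2 on the same strand.

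All 6 clamp and clamp loader genes were lower with each shRNA, with medians of -1.51 and -1.80. PCLAF, a small protein that binds PCNA at forks, had 2122, 2250 and 2245 normalized reads in the controls, 296, 233 and 248 for shRASSF2-1 and 171, 247 and 196 for shRASSF2-2. Controls were far above both knockdowns, which overlapped each other. PCLAF fell to 11.7% and 9.28% of the control mean (log2 fold change -3.09 and -3.44, SE 0.14, limma adjusted p = 1.49e-07 and 2.28e-08), the first being the most negative of the 50 with shRASSF2-1. PCNA, the sliding clamp, was 543, 997 and 1187 in the controls, 249, 204 and 204 under shRASSF2-1, and 262, 319 and 286 under shRASSF2-2. Controls again lay above both knockdowns, with shRASSF2-1 below shRASSF2-2 (log2 fold change -1.98 and -1.58, limma adjusted p = 6.33e-05 and 0.00022). 

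The loader subunits, which open the clamp, ranged widely. RFC4 was the least reduced of the 6 clamp and loader genes, at 497, 800 and 979 normalized reads in the controls, 474, 370 and 357 in the shRASSF2-1 libraries and 260, 268 and 270 in the shRASSF2-2 libraries. Its highest shRASSF2-1 library came within a few percent of control replicate 1, and no groups overlapped (log2 fold change -0.88 and -1.45, limma adjusted p = 0.0055 and 0.000167). RFC3 had 856, 1192 and 1156 in the controls, 410, 469 and 448 for shRASSF2-1 and 169, 197 and 187 for shRASSF2-2. The groups did not overlap, with shRASSF2-2 lowest (log2 fold change -1.26 and -2.52, limma adjusted p = 2.76e-05 and 1.1e-07), and RFC5 was similar (-1.0 and -2.02). RFC2 had the nearer values of -1.76 and -1.55 (limma adjusted p = 6.54e-07 and 6.4e-07).

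Both Okazaki fragment genes fell. LIG1, the ligase that seals the fragments, had 1103, 1057 and 1078 normalized reads in the controls, 391, 346 and 342 under shRASSF2-1, and 283, 273 and 254 under shRASSF2-2. FEN1, the nuclease that trims their flaps, had 1154, 1589 and 1541 in the controls, 565, 526 and 510 in the shRASSF2-1 libraries and 308, 421 and 332 in the shRASSF2-2 libraries. Neither gene had overlapping groups, and the log2 fold changes were -1.59 and -2.0 for LIG1 and -1.41 and -2.01 for FEN1 (limma adjusted p between 4.57e-08 and 2.23e-05).

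The 3 subunits of RPA, the trimer that coats single-stranded DNA, did not move together. RPA3 had 345, 535 and 519 normalized reads in the controls, 178, 160 and 171 for shRASSF2-1 and 145, 119 and 149 for shRASSF2-2, with no overlap (log2 fold change -1.43 and -1.73, limma adjusted p = 6.84e-05 and 1.12e-05). RPA1, the large subunit, was lower with both shRNAs (-0.74 and -1.30, limma adjusted p = 2.96e-05 and 2.71e-07). RPA2 had 596, 948 and 1025 in the controls, 1092, 918 and 831 under shRASSF2-1, and 480, 588 and 526 under shRASSF2-2. Its shRASSF2-1 libraries overlapped the controls, while its shRASSF2-2 libraries lay below them, narrowly for control replicate 1. RPA2 was not called with shRASSF2-1 (log2 fold change 0.17, 111% of the control mean, limma adjusted p = 0.461; without control replicate 1 it was -0.07 and again not called) and was lower with shRASSF2-2 (-0.65, limma adjusted p = 0.0123), a call lost without shRASSF2-2 replicate 1 (-0.58, limma adjusted p = 0.0502).

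All 4 fork protection genes were lower with each shRNA, with medians of -1.58 and -1.85. CLSPN, which encodes claspin, the adaptor that carries the checkpoint signal at stalled forks, had 1789, 1749 and 1657 normalized reads in the controls, 240, 262 and 268 in the shRASSF2-1 libraries and 220, 293 and 198 in the shRASSF2-2 libraries. The knockdowns overlapped each other far below the controls, at 14.8% and 13.7% of their mean (log2 fold change -2.75 and -2.88, SE 0.14, limma adjusted p = 1.93e-07 and 4.71e-08). TIMELESS had 1706, 2108 and 1845 in the controls, 757, 762 and 732 for shRASSF2-1 and 642, 674 and 576 for shRASSF2-2. It was the least reduced of the 4 on the mean of both comparisons, and no groups overlapped (log2 fold change -1.32 and -1.58, limma adjusted p = 2.25e-06 and 2.89e-07). TIPIN, its binding partner, had log2 fold changes of -1.71 and -1.49, and WDHD1, which links the helicase to polymerase alpha, -1.45 and -2.12 (limma adjusted p between 3.48e-07 and 1.53e-05).

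The 3 chromatin assembly and histone mRNA genes were lower with each shRNA, with medians of -1.43 and -2.1. CHAF1A, a subunit of the factor that places histones behind the fork, had 1736, 1537 and 1456 normalized reads in the controls, 590, 598 and 564 under shRASSF2-1, and 272, 337 and 270 under shRASSF2-2. No groups overlapped (log2 fold change -1.43 and -2.43, limma adjusted p = 2.83e-06 and 3.78e-08), and its partner CHAF1B was lower too (-1.68 and -2.1). SLBP, which binds the stem-loop of histone mRNAs, had 1518, 2098 and 2412 in the controls, 1102, 937 and 1024 in the shRASSF2-1 libraries and 1094, 1127 and 1004 in the shRASSF2-2 libraries. The knockdowns overlapped each other at about the same level, below the controls (log2 fold change -0.95 and -0.88, limma adjusted p = 0.000352 and 0.000474).

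**Figure D3:**
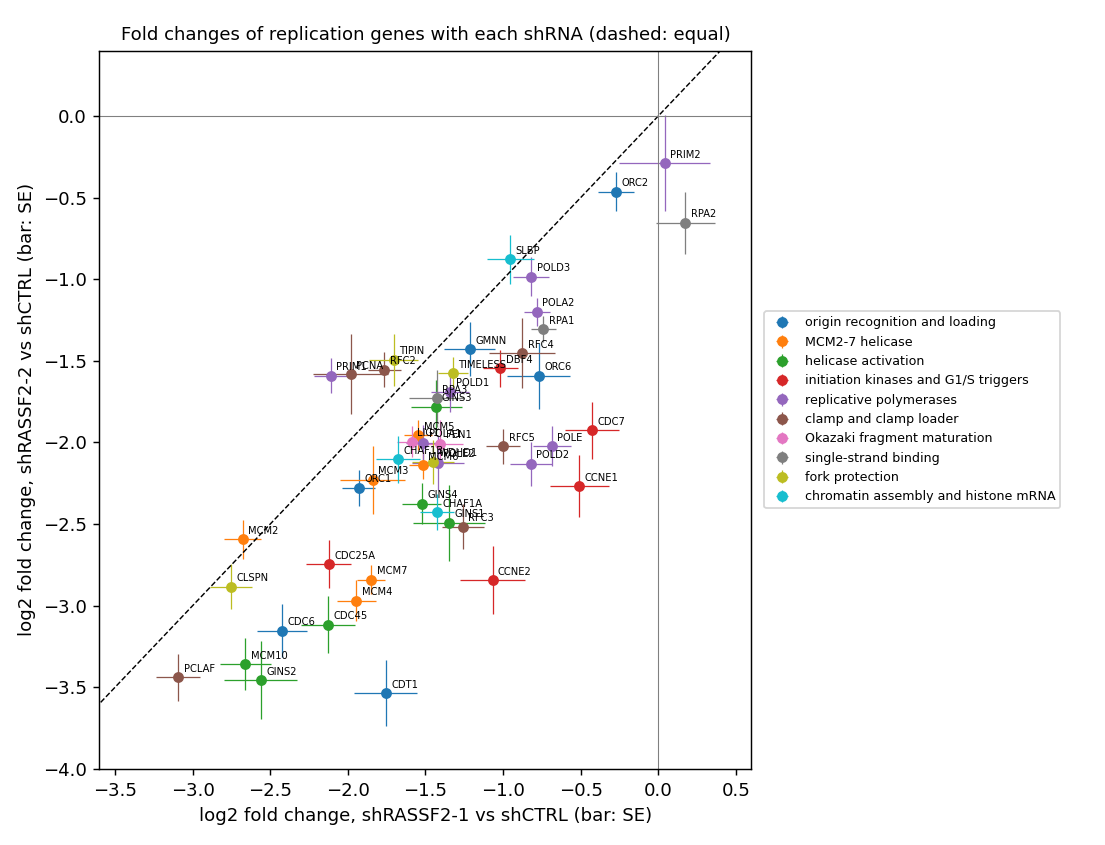
Log2 fold change of each replication gene against the same 3 controls with shRASSF2-1 (horizontal) and shRASSF2-2 (vertical), with standard errors as bars and roles by colour; the dashed line marks equal values. Of the 50 points, 44 lie below the line, and CDT1, CCNE2, CCNE1 and CDC7 lie furthest under it.

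The shRNAs were then compared directly. With shRASSF2-2, 35 of the 50 genes were lower than with shRASSF2-1, 1 was higher (PRIM1) and 14 were not called, against 28.5% of all tested genes called lower and 30.0% called higher. The median log2 difference of the 50 was -0.57, against -0.03 over all genes. All 3 shRASSF2-2 libraries were below all 3 shRASSF2-1 libraries for 39 genes, a separation that was not counted over all genes. When values were scaled by total reads in place of the authors' size factors, the median of all genes shifted to 0.40 with shRASSF2-1, 0.02 with shRASSF2-2 and -0.42 between the shRNAs. On that scale 43 of the 50 were lower with shRASSF2-1 (16.7% of all genes), 49 with shRASSF2-2 (29.3%) and 44 in the direct comparison (47.5%), and the medians of the 50 were -1.05, -2.04 and -0.96. Such scaling moves all genes of a library alike, so the position of the 50 relative to the median of all genes could hardly change. The comparison of the 2 scales is therefore no check of that position.

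The role groups differed most in the initiation kinases and G1/S triggers, where all 5 genes were lower with shRASSF2-2, with a median difference of -1.50. Differences for CDT1, CCNE2, CCNE1 and CDC7 were -1.78, -1.78, -1.76 and -1.50, with 95% intervals of -2.23 to -1.33, -2.24 to -1.31, -2.18 to -1.34 and -1.88 to -1.11 (limma adjusted p between 2.06e-05 and 3.82e-05). POLE, POLD2 and RFC3 followed at -1.34, -1.31 and -1.26 (limma adjusted p = 6.16e-06, 1.47e-05 and 2.13e-05). Helicase activation genes had a median difference of -0.87 with 5 of 6 called lower, MCM2-7 genes -0.51 with 4 of 6, polymerases -0.42 with 6 of 9 lower and PRIM1 higher, the clamp and its loader -0.46 with 3 of 6, and fork protection genes -0.19 with 2 of 4. These medians are descriptions of small groups and no test was made between groups.

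At the other end, PRIM1 was higher with shRASSF2-2 by 0.52 (95% interval 0.28 to 0.76, limma adjusted p = 0.00181), and this became 0.13 and was not called under scaling by total reads (limma adjusted p = 0.315). PCNA differed by 0.40 (95% interval -0.14 to 0.94, limma adjusted p = 0.181) and was called higher without control replicate 1 (limma adjusted p = 0.00454). In that fit 41 of the 50 were lower and 2 higher, with MCM3, GINS3, PRIM2, POLD3, PCLAF and RPA3 added to the lower ones. Calls also rose over all genes there, to 35.6% lower and 5496 of 15349 higher, from 28.5% lower and 4647 of 15465 higher. CLSPN differed by -0.13 (95% interval -0.44 to 0.17, limma adjusted p = 0.428), and was called lower without shRASSF2-2 replicate 2 (-0.30, limma adjusted p = 0.0455). PCLAF differed by -0.35 (95% interval -0.66 to -0.03, limma adjusted p = 0.0575), and was called without shRASSF2-2 replicate 2 (limma adjusted p = 0.0113) and by edgeR and DESeq2 (adjusted p = 0.0421 and 0.047). TIPIN, RFC2 and SLBP differed by 0.21, 0.21 and 0.08, each with an interval that includes 0.

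Several of the smaller differences depended on single libraries or settings. TIMELESS, at -0.25 (limma adjusted p = 0.0473), was lost without control replicate 3, any 1 of the shRASSF2-1 libraries, or shRASSF2-2 replicate 1 or 3 (limma adjusted p = 0.0530 to 0.174), and also with no filter, with the flow cell as a covariate and with the replicate block (limma adjusted p = 0.0540, 0.0521 and 0.0511). POLD1, at -0.35 (limma adjusted p = 0.0298), was lost without shRASSF2-1 replicate 2 or 3 or any 1 shRASSF2-2 library (limma adjusted p = 0.0561 to 0.122). ORC1, at -0.35 (limma adjusted p = 0.0184), was lost without shRASSF2-1 replicate 1 or 2 or shRASSF2-2 replicate 3 (limma adjusted p = 0.0523 to 0.0771). RFC4 and CHAF1B, at -0.58 and -0.43 (limma adjusted p = 0.0390 and 0.0253), were also lost, RFC4 without any 1 of the 6 knockdown libraries (limma adjusted p = 0.0532 to 0.144) and CHAF1B without replicate 1 or 2 of either shRNA (limma adjusted p = 0.0656 to 0.0868).

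**Figure D4:**
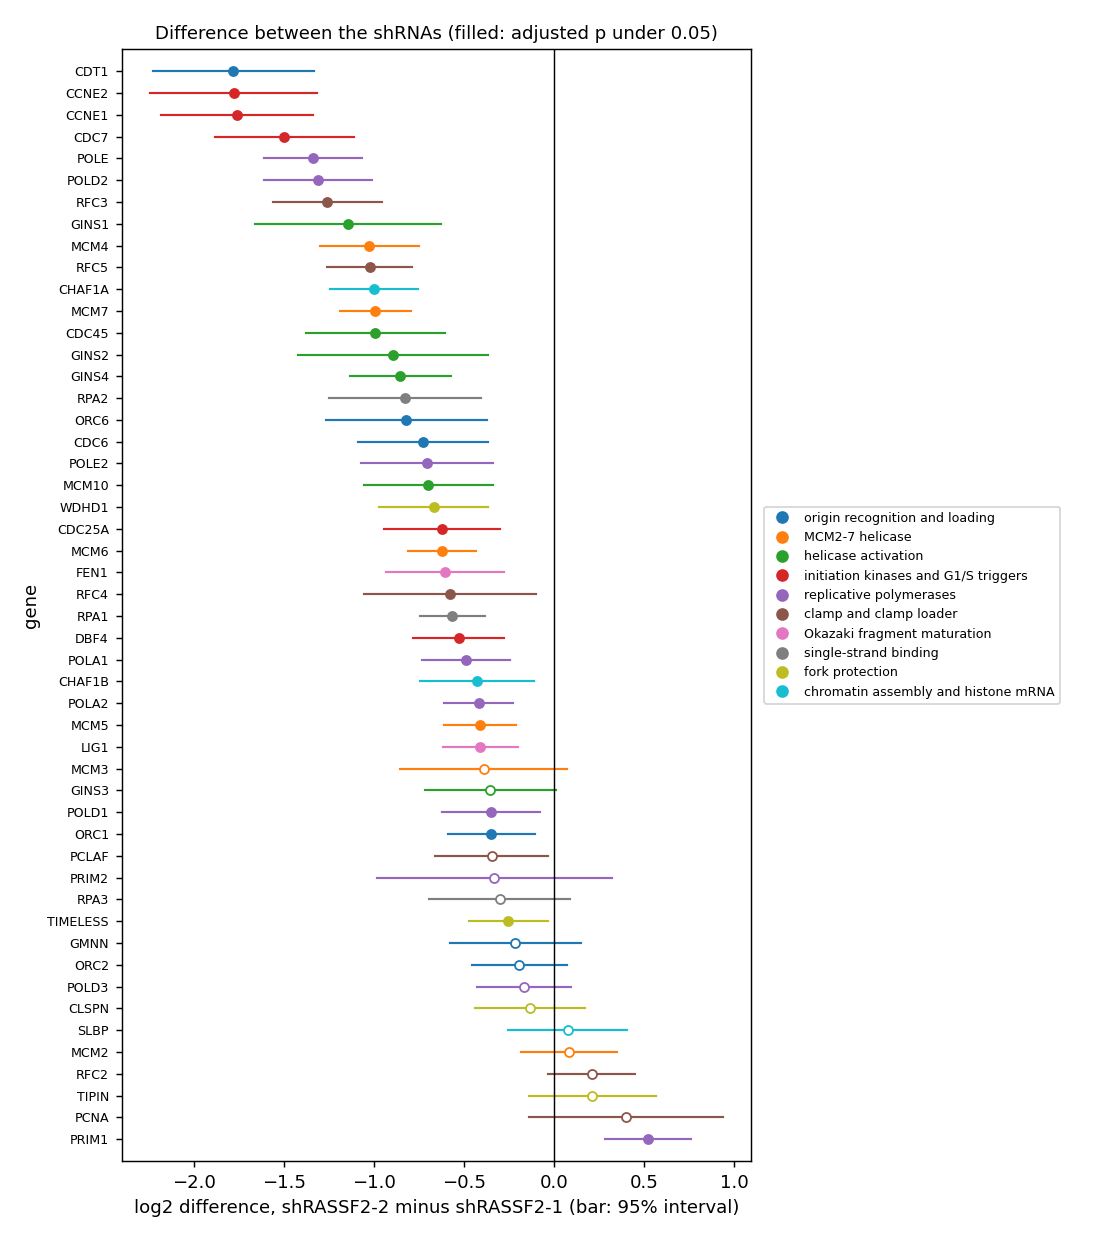
Log2 difference between shRASSF2-2 and shRASSF2-1 for each replication gene, ordered by size, with 95% intervals as bars and roles by colour; filled points have a limma adjusted p under 0.05. The order runs from CDT1 at -1.78 to PRIM1 at 0.52, and 36 points are filled.

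**Figure D5:**
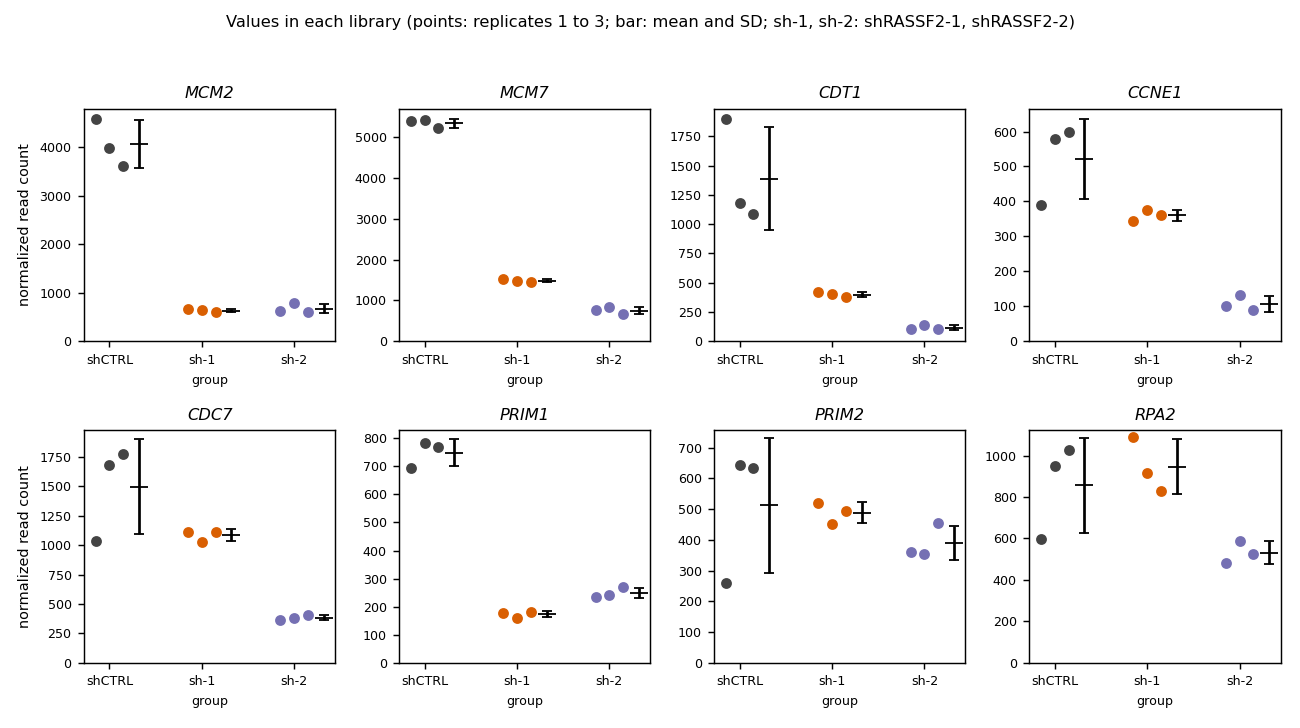
Normalized read count in each library (points) with the group mean and SD (bar, n = 3) for 8 replication genes. MCM2 is low with both shRNAs, which overlap, MCM7, CDT1, CCNE1 and CDC7 are lower with shRASSF2-2, PRIM1 is lower with shRASSF2-1, and for PRIM2 and RPA2 control replicate 1 is well below the other controls.

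A further 27 replication factors outside the 50 were less uniform. With shRASSF2-1, 20 were lower, 2 higher and 5 not called, with a median of -0.79. With shRASSF2-2, 22 were lower, 3 higher and 2 not called, with a median of -0.91. Over all genes, 26.9% were called higher with shRASSF2-1 and 31.8% with shRASSF2-2. The counts called higher were unstable. With shRASSF2-1, 5 were higher and 14 lower under scaling by total reads, where 7025 of all 15518 genes tested were higher and 16.7% lower. The shRASSF2-1 count was 0 with the flow cell as a covariate, 1 when only these groups were fitted and 1 without shRASSF2-1 replicate 1. For shRASSF2-2 the count was 1 with the flow cell as a covariate. DTL, a substrate receptor that sends CDT1 for destruction during S phase, fell with both shRNAs (log2 fold change -2.72 and -3.55, limma adjusted p = 1.63e-07 and 1.02e-08). The helicase genes MCM8 (-0.80 and -2.44) and RECQL4 (-0.61 and -2.82) had the larger changes with shRASSF2-2, and RNASEH2B, a subunit of the enzyme that removes ribonucleotides from DNA, had -1.65 and -1.40. ORC3 was higher with shRASSF2-1 (0.44, limma adjusted p = 0.00379), and ORC4 and MCM9 with shRASSF2-2 (0.46 and 0.53, limma adjusted p = 0.00948 and 0.0011). POLD4, the small subunit of polymerase delta, was higher with both (0.63 and 0.75, limma adjusted p = 0.0218 and 0.00845).

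Of 12 polymerases that act in repair and in bypass of lesions, 3 were lower and 4 higher with shRASSF2-1, with a median of 0.08, and 5 were lower and 3 higher with shRASSF2-2, with a median of -0.22. With so few genes these counts are near the shares over all genes, 29.2% lower and 26.9% higher with shRASSF2-1 and 29.1% and 31.8% with shRASSF2-2, and nothing is read from them. Under scaling by total reads, 2 were lower and 7 higher with shRASSF2-1. On that scale 7025 of all 15518 genes tested were higher and 16.7% lower, and nothing is read from these counts either. POLQ, the polymerase of end joining, fell (log2 fold change -1.65 and -2.84, limma adjusted p = 2.18e-06 and 2.72e-08). POLB, the base excision repair polymerase, rose by 0.36 and 1.40 (limma adjusted p = 0.0115 and 8.17e-07), and the bypass polymerase POLI by 1.03 and 0.62 (limma adjusted p = 0.000235 and 0.00494). POLL and POLM, of end joining, were higher with shRASSF2-1 (0.82 and 0.73, limma adjusted p = 8.99e-05 and 2.47e-05), POLK, a bypass polymerase, with shRASSF2-2 (1.04, limma adjusted p = 3.59e-05), and POLH, of the same class, was lower with shRASSF2-2 (-0.78, limma adjusted p = 1.29e-05).

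The identity of the cells was read from marker lists. Of 14 monocytic THP-1 markers 13 were above 1 TPM in the controls, MEIS1 being near 0. Their summed level was 2615 to 3225 TPM in the controls, 3098 to 3168 under shRASSF2-1 and 6974 to 7004 under shRASSF2-2. Of the 13 tested, 3 were higher and 6 lower with shRASSF2-1, and 8 and 4 with shRASSF2-2. Over all genes, 26.9% were higher and 29.2% lower with shRASSF2-1, and 31.8% and 29.1% with shRASSF2-2. The log2 fold changes were 1.66 and 1.56 for ITGAM, 2.47 and 4.17 for CD14, and 0.26 and 2.39 for CD68. They were 0.15 and 2.02 for CSF1R and -0.66 and 2.64 for TYROBP. Lower with both were LYZ (-1.14 and -1.27), CEBPA (-0.70 and -0.63) and MPO (-4.42 and -3.48, control mean 2.78 TPM). Mean TYROBP was 436 TPM in the controls and 2810 under shRASSF2-2, and mean CD68 was 316 and 1702 TPM. Summed lymphoid markers, 5 of 7 being in the table, gave 29 to 35.3, 25.6 to 27.3 and 8.12 to 10.1 TPM. Of these, CD3E was at most 0.399 TPM and CD79A at most 1.36 TPM in any library. Erythroid markers, 2 of 5 in the table, summed to 0.257 to 1.76, 0.300 to 0.870 and 1.2 to 2.03 TPM. The 8 epithelial markers summed to 6.30 to 43.9, 46.4 to 168 and 86.7 to 92.9 TPM, and connective tissue and vessel markers, 6 of 8 in the table, to 123 to 179, 138 to 179 and 113 to 132 TPM. PECAM1, which monocytes also express, held 123 to 177 TPM of the vessel sum in the controls and was lower with both shRNAs (log2 fold change -0.53 and -0.58). Of the 6 epithelial markers tested, 4 were higher with shRASSF2-1 and 6 with shRASSF2-2, and of the 5 vessel and connective tissue markers tested, 3 and 4 were higher. The log2 fold changes were 4.95 and 5.99 for FCGBP, 4.12 and 4.85 for KRT18, 5.04 and 5.34 for SPARC and 4.70 and 4.38 for STAB1, while EPCAM, which defines epithelium, lay between 0 and 2.13 TPM. Control replicate 3, the control that shared the flow cell of the knockdowns, stood apart from the other controls for these markers. FCGBP had 331 normalized reads there against 3.63 and 2.49, KRT18 156 against 0 and 0.83, and SPARC 69.4 against 0 and 2.49. In shRASSF2-1 replicate 1 FCGBP was lower than that, at 119. KRT18 was lower in shRASSF2-1 replicates 1 and 3, at 106 and 41.7, and in shRASSF2-2 replicate 3, at 127. Of the 9 libraries, shRASSF2-1 replicate 2 had the highest KRT18, KRT8 and KRT19, at 331, 496 and 158. In shRASSF2-1 replicates 1 and 3, KRT8 was 160 and 106 and KRT19 was 12.4 and 13.6. SPARC and STAB1 were above control replicate 3 in every knockdown library. The part of the flow cell in these fold changes was not tested. The share of reads from the mitochondrial genome was 5.86% to 7.45% in the controls, 4.31% to 5.24% under shRASSF2-1 and 2.61% to 3.61% under shRASSF2-2. The epithelial sum, the lymphoid sum and the mitochondrial share thus lay outside the control range with both shRNAs. Some epithelial and vessel markers were called higher, FCGBP and KRT18 with values that overlapped control replicate 3. The monocytic sum stood apart with shRASSF2-2. With shRASSF2-1 it lay within the control range, while single monocytic markers were called in both directions. The part of these marker and mitochondrial changes in the fall of the replication genes was not tested.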

How the data were processed

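RNA from 9 libraries was sequenced by the submitters, whose processing notes list DESeq2 1.18.1, featureCounts 1.6.2, HISAT2 2.1.0 and Picard with the build hg38. The deposited values are a normalized signal: whole reads divided by a size factor per library, as 100% of values were whole multiples of 1 read within 0.001. The authors also deposited log2 fold changes and an adjusted p-value per gene, whose libraries the header does not name. Genes were compared by limma-trend (limma 3.58.1, R 4.3.3) on log2(value + 1), where fold changes of low genes are understated. Genes had to reach 10 in 3 or more libraries (15465 genes tested, 3057 left out), all 9 libraries were fitted together, and Benjamini-Hochberg adjusted p under 0.05 over all genes was called. Because the values were normalized, count tests (edgeR 4.0.16 with TMM, DESeq2 1.42.0) on the recovered reads were alternatives. On those reads edgeR called 4145 genes higher and 4584 lower with shRASSF2-1, and 4655 and 4731 with shRASSF2-2. TPM was computed from the recovered reads and GENCODE exon lengths. Scripts were tested on simulated data.

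The 50 genes, their roles, the other lists and the alternatives were chosen with earlier results of these data known. In each role group, values per library are given for the genes with the most and least negative mean fold change, and for the 4 most negative and 4 most positive called differences between the shRNAs. In the other lists, members called higher and up to 4 with the smallest p are named. Per-library values of MCM7, POLE, RFC3 and PCNA, and the other genes named, were chosen after their values were seen. Sequences were read from RefSeq's promoter table.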

Additional observations from a re-analysis of the deposited data

How the results depend on the processing

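The counts of genes called lower held within 1.5 times under every alternative run: 43 to 49 with shRASSF2-1, 48 to 50 with shRASSF2-2 and 30 to 44 between the shRNAs. Starting from 46 and 49 of 50, the first 2 counts could not have risen by 1.5 times. The share of all genes called lower ran from 16.7% to 33.9%, 23.6% to 33.6% and 23.9% to 47.5% in the same order. The count of 44 came from scaling by total reads, where that share was 47.5%. The count called higher between the shRNAs was 0 with scaling by total reads, where PRIM1 was not called (0.13, limma adjusted p = 0.315) and edgeR and DESeq2 with their own scaling called it. It was 2, with PCNA added, among the 7 libraries that shared a flow cell, in the fit of only the groups compared and without control replicate 1, and 1 to 2 when each library was left out. Directions with a call on either side reversed for PRIM2 with shRASSF2-1, to -0.38 in the 7 libraries, a fit with 1 control whose spread comes from the knockdowns (limma adjusted p = 0.0379), and to -0.39 without control replicate 1, the leave-one-out values running from -0.39 to 0.27. Uncalled values with shRASSF2-1 also changed sign: PRIM2 to -0.07 with edgeR and DESeq2 and -0.38 with the flow cell as a covariate, and to just under 0 without shRASSF2-1 replicate 1, and RPA2 to -0.12 with the flow cell as a covariate or in the 7 libraries and to -0.07 without control replicate 1. The difference between the shRNAs for MCM2 reversed to -0.31 with scaling by total reads (limma adjusted p = 0.0313), where 48 of the 50 differences were below 0 against 44. That scaling also ended the calls of CCNE1 (-0.13), ORC6 (-0.39) and RFC4 (-0.50) with shRASSF2-1 and called RPA2 higher (0.55, limma adjusted p = 0.0335). With the replicate number as a block, 47, 49 and 33 genes were lower and 1 higher, against 28.1%, 28.2% and 27.5% of all genes lower. CDC7 was then called with shRASSF2-1 (limma adjusted p = 0.0485), and RFC4 and TIMELESS were no longer called between the shRNAs. Same-numbered libraries did not deviate together (r = -0.16 to 0.12). The deviations of the controls also hold the odd replicate 1 and the split of flow cells. Whether the numbers pair the libraries therefore cannot be settled from these correlations. No normalized value of the 50 was below 31.9, so the filter at 10 left out none of them.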
